A study of Mus musculus with 7 samples.

Results

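The 36 genes described here encode proteins of the extracellular matrix: 18 collagen chains, 6 laminin chains, 3 basement membrane linkers, and 9 other proteins comprising glycoproteins, small proteoglycans, elastic fibre components and the matrix-bound protease inhibitor Timp3. They are a named list by function, chosen with earlier results of these data known, and the list has no threshold on level. They are 36 of the 23465 genes in the deposited tables, and all 36 passed the filter on low counts and were tested. Some, such as Col6a1, Fbn1 and Eln, had no UMI in any endocrine sum, so they passed the filter through other cell types. How many of the 36 were called is thus a description of these groups and no independent support. The question was which cells of the mouse pancreatic islet hold the RNA of the matrix genes.

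Islet endocrine cells are clustered around dense capillaries, and the basement membrane of those vessels is the matrix they lie against. A basement membrane is a sheet in which networks of collagen IV and of laminin are tied together by nidogens and perlecan, whereas the looser interstitial matrix is built from fibrillar collagens with collagen VI, decorin, lumican and elastic fibres. Collagens are trimers, so the partner chains of one collagen are usually made by the same cell. Stellate cells are the fibroblast-like and pericyte-like cells of the pancreas, and they are known for making interstitial matrix when activated.

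The study compared ways of preparing single-cell libraries from islets for long-read sequencing, with 7 samples in 4 groups in its labels. The values below come from both libraries of a single group. In that group islets of female C57BL/6 mice aged 10 weeks were freed with collagenase and dissociated with Accutase, and a droplet assay that reads from the 5' end was loaded for a target of 4000 cells. Its preparation was modified with 1 µl of 10 mM dNTP in each of 2 steps and with extension times raised from 45 min to 2 h and from 1 min to 3 min, insulin cDNA was cut out with Cas9 guides, and the cDNA was read by nanopore sequencing. The labels call the libraries replicates 1 and 2 without saying whether separate animals were used, so the p-values measure only the spread between these libraries.

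Replicate 1 held 4814 cells with 11012364 unique molecular identifiers (UMIs, each standing for 1 captured RNA molecule), and replicate 2 held 1093 cells with 12092393 UMIs, so a cell of replicate 2 was read far more deeply. The libraries shared 5 cell barcodes. UMIs were summed over the cells of each type in each library, and levels are given as CPM, the UMIs of a gene scaled to a common total for every sum. Cell types are the authors' classes, and the class called stellate here is the one they name quiescent stellate. There was 1 change: a cluster inside their endothelial class carried duct markers at 25594 and 24237 CPM and endothelial markers at 53.5 and 58.7 CPM. It was set apart as the duct-led cluster. The endothelial cells that remained (129 and 10 cells) carried their 8 endothelial markers at 22374 and 19990 CPM, the macrophages (62 and 7 cells) carried their 8 markers at 25060 and 29456 CPM, and all 9 stellate and pericyte markers were detected in the stellate cells (118 and 27 cells). The classes were built from the same gene table that is tested here, so each test describes how far the labelled groups differ and is no independent proof of a cell type.

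Other cell types were visible inside the stellate class, and their share differed between the libraries. A list of 5 fibroblast markers summed to 2435 CPM in the stellate cells of replicate 1 and to 80.6 CPM in those of replicate 2, where Pdgfra and Pi16 were at 0. A list of 5 Schwann cell markers was at 0 in replicate 1 and at 907 CPM in replicate 2, where 10 of 27 cells carried at least 1 such UMI. These cells carried from 1 to 25 such UMIs each. At least 1 was also found in 106 of 318 delta, 69 of 435 beta, 34 of 239 alpha and 13 of 41 PP cells of replicate 2. Their sums stood at 28.9, 17.8, 16.6 and 27.8 CPM, so a single UMI does not mark a Schwann cell. Among the 10 endothelial cells of replicate 2, 1 cell carried 221 UMIs of stellate and pericyte markers, so that this list stood at 3619 CPM in that group and at 17.6 CPM in replicate 1. The part of these cells in the results below was not tested except where values without them are given.

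Start-site sequences were available for 24 of the 36 genes from RefSeq (GRCm38.p6), each covering 250 bases before to 50 bases after a start site. They were searched on both strands for the TATA box (letters TATAAA). The same was done for the CCAAT box (letters CCAAT) and for the GC box (letters GGGCGG), and each motif was counted whether or not it overlapped another. The TATA box letters occurred in 2 of the 24 genes, the CCAAT box in 7 and the GC box in 16, whereas the shares among all 32851 promoter windows of the same length were 13.6%, 37.4% and 35.7%. The 6 windows below belong to the genes on which the results turn, in 5′ to 3′ order on the gene's strand, with capitals marking matches to any of the 3 motifs on either strand. Col4a1 (chr8:11312777-11313076, minus strand) and Col4a2 (chr8:11312555-11312854, plus strand) are shown because they encode partner chains, are transcribed away from each other, and have annotated start sites whose transcripts share 22 bases.
Col4a1: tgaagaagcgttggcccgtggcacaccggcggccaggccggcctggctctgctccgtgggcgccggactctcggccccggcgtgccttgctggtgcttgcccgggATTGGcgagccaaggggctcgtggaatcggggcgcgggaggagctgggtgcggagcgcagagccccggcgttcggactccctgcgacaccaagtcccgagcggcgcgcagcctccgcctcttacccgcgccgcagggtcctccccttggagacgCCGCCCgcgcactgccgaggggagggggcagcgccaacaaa
Col4a2: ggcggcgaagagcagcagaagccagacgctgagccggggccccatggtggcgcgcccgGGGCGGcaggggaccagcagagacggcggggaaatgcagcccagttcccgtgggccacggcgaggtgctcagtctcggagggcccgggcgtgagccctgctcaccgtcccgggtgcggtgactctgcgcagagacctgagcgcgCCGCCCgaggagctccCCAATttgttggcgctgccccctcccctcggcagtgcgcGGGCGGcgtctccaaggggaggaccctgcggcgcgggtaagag
Col6a3 (chr1:90843922-90844221, minus strand) and Col6a1 (chr10:76725995-76726294, minus strand) are partner chains of collagen VI on different chromosomes, and neither window held any of the 3 motifs.
Col6a3: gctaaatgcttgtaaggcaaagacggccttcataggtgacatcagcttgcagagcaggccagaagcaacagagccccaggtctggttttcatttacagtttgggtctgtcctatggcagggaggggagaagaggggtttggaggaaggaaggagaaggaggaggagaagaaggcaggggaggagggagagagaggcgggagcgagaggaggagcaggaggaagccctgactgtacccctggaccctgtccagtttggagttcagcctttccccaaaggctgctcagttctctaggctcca
Col6a1: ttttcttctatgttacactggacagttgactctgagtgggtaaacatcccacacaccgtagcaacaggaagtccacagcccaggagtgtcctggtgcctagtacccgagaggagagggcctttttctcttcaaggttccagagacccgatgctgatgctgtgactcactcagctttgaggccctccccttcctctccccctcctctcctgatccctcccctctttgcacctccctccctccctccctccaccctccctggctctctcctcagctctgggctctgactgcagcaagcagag
Col13a1 (chr10:61979059-61979358, minus strand) and Col3a1 (chr1:45311288-45311587, plus strand) are the 2 genes with the TATA box letters, and they are shown because Col13a1 UMIs lay almost wholly in endothelial cells and Col3a1 UMIs in stellate cells. Col6a1 UMIs lay almost wholly in stellate cells too, and its window had none of the motifs.
Col13a1: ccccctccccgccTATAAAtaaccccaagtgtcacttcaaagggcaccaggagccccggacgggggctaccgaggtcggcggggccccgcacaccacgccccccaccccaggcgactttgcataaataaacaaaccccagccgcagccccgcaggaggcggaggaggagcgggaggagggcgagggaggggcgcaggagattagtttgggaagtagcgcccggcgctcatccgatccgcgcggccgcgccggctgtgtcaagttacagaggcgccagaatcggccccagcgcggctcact
Col3a1: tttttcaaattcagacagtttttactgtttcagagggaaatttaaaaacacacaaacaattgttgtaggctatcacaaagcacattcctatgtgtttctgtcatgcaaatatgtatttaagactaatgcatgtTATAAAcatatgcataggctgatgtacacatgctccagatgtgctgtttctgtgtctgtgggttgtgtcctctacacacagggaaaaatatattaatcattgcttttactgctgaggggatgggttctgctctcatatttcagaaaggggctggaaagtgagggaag
A match is a description of these letters only, and no binding or start-site use was measured at these windows.

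Stellate and endothelial cells, together a small minority of the cells, held most of the matrix UMIs in both libraries. In replicate 1 the 36 genes had 7948 UMIs, of which stellate cells held 59.3% while making up 2.45% of cells, and endothelial cells held 30.2% while making up 2.68%. In replicate 2 they had 3027 UMIs, of which stellate cells held 37.1% at 2.47% of cells and endothelial cells held 27.7% at 0.915% of cells. These are shares of the cells kept. Barcodes left out of the cell table held a further 4233 such UMIs in replicate 2, as described at the end. The shares are by class, and the classes of replicate 2 were mixed. The 10 stellate class cells with Schwann markers held from 21 to 86 UMIs of the 36 genes each. For Sparc alone they held 314 of 538 stellate UMIs. The 1 endothelial cell with 221 stellate and pericyte marker UMIs held 301 UMIs of the 36 genes. Shares without these cells were not computed. The endocrine cells, which were 93.3% and 94.5% of cells, held 9.81% and 23.9%, and macrophages held 0.101% and 0.165%. With all 36 genes summed, the level was 36236 and 11327 CPM in stellate cells, 14096 and 13144 CPM in endothelial cells, 1123 and 1164 CPM in the duct-led cluster, 73.2 and 80.7 CPM in macrophages, and 73.8 and 62.4 CPM in endocrine cells. The endothelial, duct-led, macrophage and endocrine levels lay close together in the libraries, whereas the stellate level was far higher in replicate 1. Without Sparc, which weighs heavily in the sum, stellate cells held 58.8% and 27.7% of the UMIs and endothelial cells 27.3% and 28.8%, so their order was no longer the same in both libraries.

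**Figure D1:**
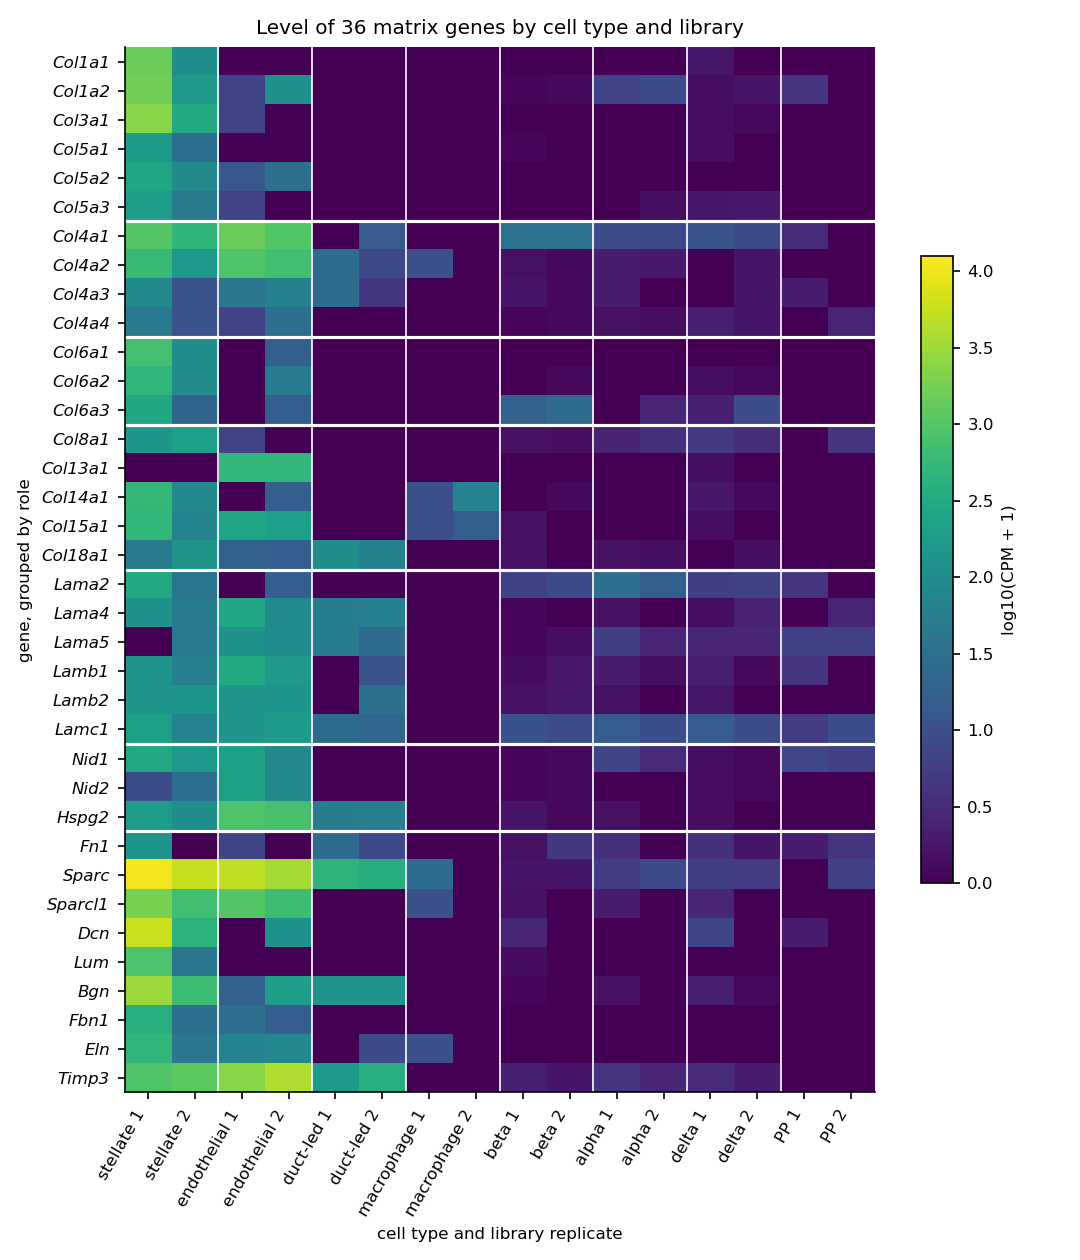
Level of each of the 36 genes (rows, grouped by role) in each cell type and library (columns), as log10 of CPM plus 1 on a colour scale. The stellate and endothelial columns are filled for most genes, the duct-led columns mainly for Sparc, Timp3, Bgn, Hspg2, Col18a1 and Lama4, and the endocrine columns are brightest at Col4a1, Col6a3, Lama2 and Lamc1.

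By gene, the stellate class had the highest CPM in both libraries for 19 of the 36 genes and the endothelial class for 9. For the other 8 genes the top type differed between libraries: Col15a1, Col4a3, Col4a4, Eln and Lamc1 moved from stellate to endothelial cells, Col18a1 from the duct-led cluster to stellate cells, Col6a3 from stellate to beta cells, and Fn1 from stellate cells to the duct-led cluster. Some of these orders rest on few UMIs in replicate 2. Endothelial against stellate UMIs there were 2 and 1 for Col4a4, 4 and 1 for Col4a3, and 5 and 4 for Eln. Fn1 had 2 UMIs in the duct-led cluster and 0 in stellate cells. Genes with the same top type in both libraries could rest on few UMIs too, such as Fbn1 (3 stellate and 1 endothelial UMI in replicate 2). Against the mean of the 4 endocrine types, 35 genes were higher in stellate cells by edgeR's quasi-likelihood test at an adjusted p under 0.05, where 13.7% of the 10459 genes tested were called higher. Their median log2 difference was 9.02, against −0.15 over all genes tested. Col13a1 was the exception, and no gene was called lower by edgeR or DESeq2 (8.61% of all genes were lower by edgeR). Fn1 and Lama5 were positive in 1 library only, and 28 of the 35 were also called by DESeq2. In the same comparison 26 genes were higher in endothelial cells, where 16.6% of all genes were called higher, with a median log2 difference of 5.91 (5.73 with genes at 0 in one group set to their bounds) against −0.26. The 10 not called were Col1a1, Col5a1, Col5a3, Col6a1, Col6a3, Col8a1, Col14a1, Lama2, Fn1 and Lum. DESeq2 called 20 of the 26. Of the 26, Col3a1, Dcn and Col6a2 were positive in 1 library only. Without endothelial cells carrying 3 or more pericyte marker UMIs, Col1a2 was no longer called (adjusted p = 0.686) and Col6a2 and Dcn turned negative (log2 −1.22 and −3.45). Both comparisons share the endocrine cells as reference.

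Fibrillar collagens, the rope-forming collagens of interstitial matrix, lay mostly in stellate cells. Stellate cells held 96.6% of their 824 UMIs in replicate 1 and 67.3% of their 113 UMIs in replicate 2. In replicate 2, 26 of these UMIs lay in 1 stellate class cell with 8 fibroblast marker UMIs. A further 23 lay in 1 cell with 75 stellate and pericyte marker UMIs. Col1a1 and Col1a2 encode the chains of collagen I. Col1a1 had 194 and 11 UMIs in stellate cells (1490 and 111 CPM) and none in endothelial cells, which puts it at least 84.6-fold and at least 2.36-fold lower there (floor of 3 UMIs per library). Col3a1, the single chain of collagen III, had 307 and 32 UMIs in stellate cells (2358 and 322 CPM) and 1 and 0 in endothelial cells. The groups did not overlap for either gene, but both stood far lower in the stellate cells of replicate 2 than in those of replicate 1.

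Col1a2 had 214 and 16 UMIs in stellate cells (1644 and 161 CPM) and 1 and 8 in endothelial cells (5.87 and 125 CPM). All 8 of those endothelial UMIs lay in the 1 cell that also carried 221 stellate and pericyte marker UMIs. The minor fibrillar chains of collagen V, Col5a1, Col5a2 and Col5a3, had 22, 33 and 26 UMIs in the stellate cells of replicate 1 and 3, 9 and 5 in replicate 2, with at most 2 in any endothelial sum. All 6 fibrillar genes were lower in endothelial than in stellate cells by edgeR's quasi-likelihood test, and all 6 were higher in stellate cells than in endocrine cells.

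Collagen IV is the network collagen of basement membranes. Its main chains Col4a1 and Col4a2 were both found in endothelial and stellate cells, and Col4a1 alone was found at a lower level in beta cells. Col4a1 had 248 and 62 UMIs in endothelial cells (1456 and 971 CPM), 133 and 47 in stellate cells (1022 and 474 CPM) and 183 and 148 in beta cells (33.6 and 33.7 CPM). Endothelial cells were above stellate cells in each library, at 1.69 times over both (95% counting interval 1.40 to 2.04), but the test did not call the difference (log2 0.54, adjusted p = 0.298). Its partner Col4a2 had 157 and 46 UMIs in endothelial cells (922 and 721 CPM) and 76 and 15 in stellate cells (584 and 151 CPM), and it was called higher in endothelial cells (log2 1.06 ± 0.34 SE, adjusted p = 0.0390). That call was lost without the library as a block (adjusted p = 0.305) and without stellate cells carrying Schwann markers (adjusted p = 0.0808). Col4a3 and Col4a4, chains of a second collagen IV network, had at most 12 UMIs in any sum (12 and 1, and 6 and 1, in stellate cells).

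Collagen VI forms beaded microfilaments from 3 chains. Col6a1 had 100 and 10 UMIs in stellate cells (768 and 101 CPM) and 0 and 1 in endothelial cells, and Col6a2 had 65 and 10 in stellate cells and 0 and 3 in endothelial cells. No Col6a1 UMI was found in any endocrine sum. Col6a3 had 36 and 2 UMIs in stellate cells (277 and 20.2 CPM), and its endocrine UMIs are described further on. All 3 chains were called lower in endothelial than in stellate cells.

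Among the other collagens, Col13a1, a transmembrane collagen, was found in endothelial cells almost alone. It had 89 and 33 UMIs there (523 and 517 CPM), 0 in the stellate cells of each library and 1 UMI in all endocrine cells. That is at least 22.7-fold and at least 17.1-fold higher than in stellate cells (floor of 3 UMIs per library, adjusted p = 2.34e-06). Col15a1, a basement membrane zone collagen, had 68 and 7 UMIs in stellate cells (522 and 70.5 CPM) and 44 and 13 in endothelial cells (258 and 204 CPM), so its order reversed between the libraries and no difference was called. Col14a1, a fibril-associated collagen, had 70 and 9 UMIs in stellate cells against 0 and 1 in endothelial cells. Col8a1, a short-chain collagen, had 19 and 20 UMIs in stellate cells against 1 and 0, and all 20 of those in replicate 2 lay in cells that carried Schwann markers. Col18a1, whose C-terminal fragment is endostatin, had 6 and 13 UMIs in stellate cells, 3 and 1 in endothelial cells, and 4 and 18 in the duct-led cluster.

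Laminins are heterotrimers of an alpha, a beta and a gamma chain, and 1 of the 6 chains was called between endothelial and stellate cells. Lama4, a vascular alpha chain, had 43 and 6 UMIs in endothelial cells (252 and 94.0 CPM) and 16 and 5 in stellate cells (123 and 50.4 CPM). Lama5, the other main alpha chain of vessel basement membranes, had 21 and 6 UMIs in endothelial cells (123 and 94.0 CPM) and 0 and 5 in stellate cells. Lama2, an alpha chain best known from muscle and nerve, had 39 and 4 UMIs in stellate cells (300 and 40.3 CPM) and 0 and 1 in endothelial cells, and it was the chain called (lower in endothelial cells, adjusted p = 0.00131). The beta chains Lamb1 and Lamb2 and the gamma chain Lamc1 were present in both. Lamb1 had 52 and 10 UMIs in endothelial cells against 17 and 6 in stellate cells (log2 1.12, adjusted p = 0.179), while Lamb2 stood at 135 and 141 CPM in endothelial cells and at 138 and 141 CPM in stellate cells.

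The linkers of the basement membrane leaned to endothelial cells, which held 70.9% and 51.3% of their UMIs. Hspg2, which encodes perlecan, a heparan sulfate proteoglycan, had 153 and 51 UMIs in endothelial cells (898 and 799 CPM) and 23 and 11 in stellate cells (177 and 111 CPM). It was 5.88 times higher in endothelial cells over both libraries (95% counting interval 4.07 to 8.72, log2 2.37 ± 0.38 SE, adjusted p = 6.34e-05), and the groups did not overlap. Nid2 had 36 and 5 UMIs in endothelial cells against 1 and 3 in stellate cells (log2 2.97 ± 0.79 SE, adjusted p = 0.0124), whereas its paralogue Nid1 had 38 and 5 against 39 and 15 and was not called (adjusted p = 0.322). The 3' end of Nid2 overlaps the gene Rtraf on the other strand, which had 42 and 27 UMIs in endothelial cells and 30 and 26 in stellate cells. The sources used here do not say whether the counting was by strand.

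Of the glycoproteins and proteoglycans, Sparc, a collagen-binding matricellular protein, had 1389 and 538 UMIs in stellate cells (10670 and 5422 CPM) and 856 and 229 in endothelial cells (5026 and 3588 CPM). It was lower in endothelial cells in each library (log2 −1.06 ± 0.34 SE, adjusted p = 0.0410), a call lost without the library as a block (adjusted p = 0.271). In replicate 2, 314 of the 538 stellate UMIs lay in the 10 cells with Schwann markers, and without such cells the difference was not called (log2 −0.87, adjusted p = 0.145). Sparcl1, its relative, had 238 and 69 UMIs in stellate cells against 174 and 41 in endothelial cells and was not called (adjusted p = 0.177). For the small leucine-rich proteoglycans, which bind collagen fibrils, most UMIs lay in the stellate class. Dcn (decorin) had 761 and 43 UMIs in stellate cells (5846 and 433 CPM) and 0 and 8 in endothelial cells, and all 8 lay in the 1 cell with pericyte markers. Lum (lumican) had 115 and 4 UMIs against none.

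Bgn (biglycan) had 395 and 67 UMIs in stellate cells (3034 and 675 CPM) against 3 and 12 in endothelial cells, where 11 of the 12 were in that same cell. Fbn1 (fibrillin 1) and Eln (elastin), the parts of elastic fibres, had 50 and 3 and 64 and 4 UMIs in stellate cells against 5 and 1 and 12 and 5 in endothelial cells. Both were called lower in endothelial cells, but for Eln the sign was the opposite in replicate 2 (log2 0.60). Fn1 (fibronectin) had 17 and 0 UMIs in stellate cells and 1 and 0 in endothelial cells, which is 131 CPM in the stellate cells of replicate 1 and nothing in either type in replicate 2.

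Timp3, an inhibitor of metalloproteases that is held in the matrix, went the other way. It had 404 and 262 UMIs in endothelial cells (2372 and 4105 CPM) and 120 and 115 in stellate cells (922 and 1159 CPM). The endothelial level was 2.78 times the stellate level over both libraries (95% counting interval 2.39 to 3.24, log2 1.38 ± 0.30 SE, adjusted p = 0.00254), and the groups did not overlap. In replicate 2, 74 of the 115 stellate UMIs lay in the cells with Schwann markers, and without such cells the log2 difference was 1.72 (adjusted p = 4.67e-04). Timp3 lies inside the gene Syn3 on the other strand, which had 15 and 22 UMIs in endothelial cells and 5 and 8 in stellate cells.

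In all, 5 of the 36 genes were higher in endothelial than in stellate cells (Col13a1, Hspg2, Timp3, Nid2 and Col4a2), where 4.56% of all genes were called higher. A further 18 were lower, where 6.16% of all genes were called lower: all 6 fibrillar genes, all 3 collagen VI genes, Col8a1, Col14a1, Lama2, Dcn, Lum, Bgn, Fbn1, Eln and Sparc. The median log2 difference of the 36 was −2.24, also with genes at 0 in one group set to their bounds, against −0.14 over all genes. The 5 higher genes were positive in both libraries, and 17 of the 18 lower genes were negative in both. DESeq2 called 3 of the 5 (Col13a1, Hspg2 and Timp3) and 2 of the 18 (Col8a1 and Lama2), and the test without the library as a block called 3 of the 5 and 14 of the 18. That test lost Timp3 (adjusted p = 0.0793), Col6a3 (0.0530), Fbn1 (0.0809) and Eln (0.140), beside Col4a2 and Sparc as given above. With the authors' whole endothelial class, duct-led cluster included, 2 genes were higher, where 382 of 13265 genes were higher. That fit also left out the macrophages and tested more genes, so the change is not due to the endothelial class alone by design.

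**Figure D2:**
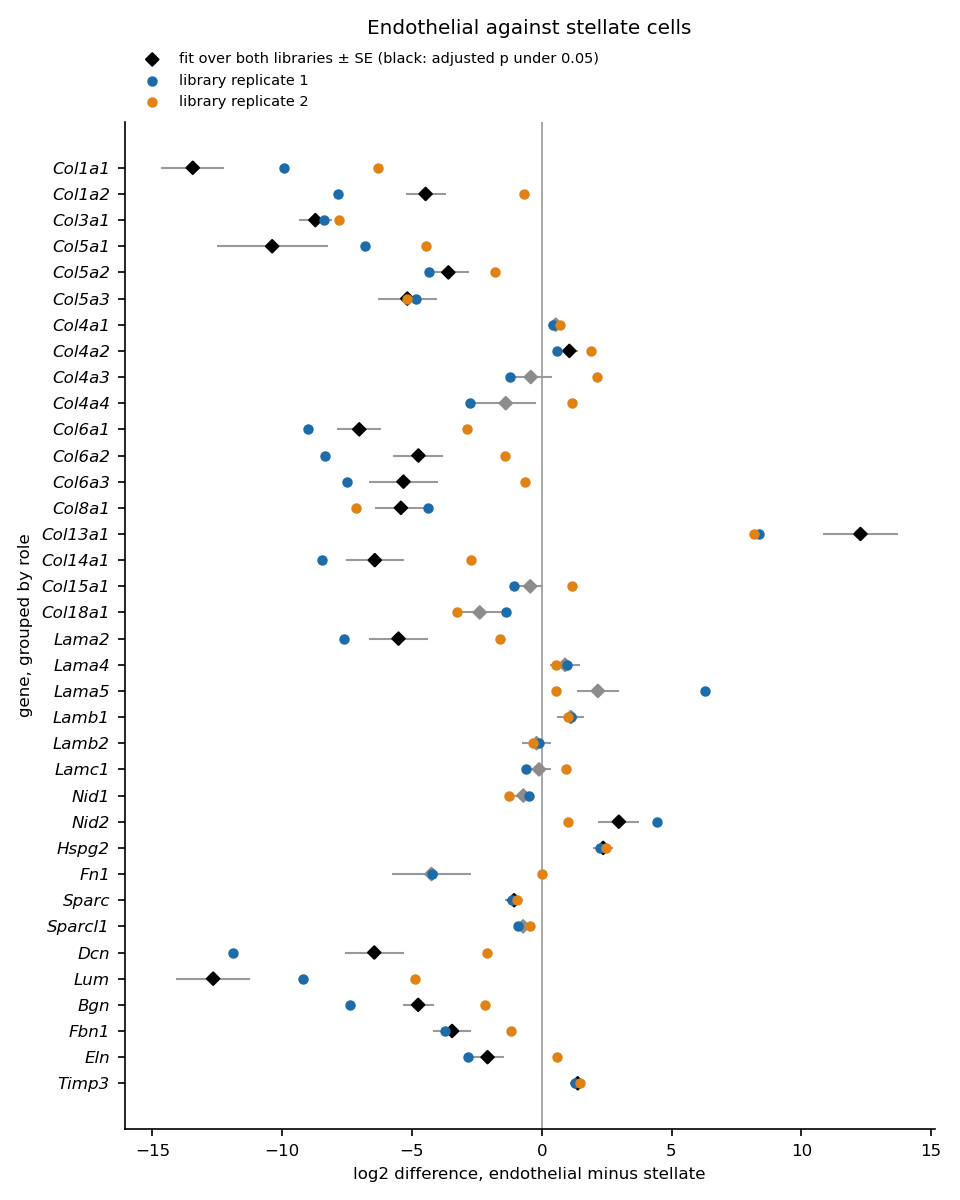
Log2 difference of each of the 36 genes between endothelial and stellate cells, with diamonds for the fit over both libraries (bars are its SE, black where the adjusted p is under 0.05) and circles for each library. Right of 0 is higher in endothelial cells: the 5 black diamonds there are Col13a1, Hspg2, Timp3, Nid2 and Col4a2, and the 18 to the left are the fibrillar and collagen VI chains with the small proteoglycans and others.

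The stellate class was not uniform in its matrix. The authors' clustering of transcripts splits it almost wholly into a cluster 11 (64 and 12 cells) and a cluster 14 (53 and 15 cells). Cluster 14 was rich in pericyte genes: Rgs5 had 728 and 403 UMIs there against 41 and 17 in cluster 11, and the smooth muscle actin gene Acta2 had 270 and 293 against 69 and 19. Nearly all fibrillar collagen and decorin lay in cluster 11, where Col1a1 had 193 and 11 UMIs against 1 and 0, Col3a1 had 299 and 27 against 8 and 5, and Dcn had 759 and 43 against 2 and 0. Genes of the basement membrane differed among themselves. Col4a1 stood at 1460 and 574 CPM in cluster 11 and at 514 and 362 CPM in cluster 14, and Nid1 at 421 and 172 CPM against 159 and 128 CPM. Hspg2 stood at 323 and 191 CPM in cluster 11 against 0 and 21.3 CPM, and Col15a1 at 940 and 134 CPM against 17.7 and 0 CPM. Timp3 was at 632 and 1435 CPM in cluster 11 and at 1328 and 852 CPM in cluster 14, so its order reversed between the libraries, and 74 of its 75 cluster 11 UMIs in replicate 2 lay in cells with Schwann markers. These are descriptions of clusters made from the same cells, with no test.

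The cells of cluster 11 were not alike in the 2 libraries. In replicate 1 they carried the fibroblast genes Clec3b (164 UMIs) and Dpt (84 UMIs) and no Sox10, a Schwann cell gene. In replicate 2 they carried 14 Sox10 UMIs and 6 and 1 UMIs of Clec3b and Dpt, and a single cell of the 12 held all 43 Dcn UMIs. With cluster 14 alone standing for stellate cells, 26 of the 36 genes passed the filter on low counts, 8 were higher in endothelial cells and 3 were lower (Bgn, Col3a1 and Col6a1), where 469 of 10260 genes were higher and 347 lower. In that setting Sparc, Dcn and Eln turned to the endothelial side without being called (log2 0.22, 0.99 and 1.95), and 19 genes were higher than in endocrine cells in place of 35. The fibrillar, decorin and lumican results rest on cluster 11, mostly in replicate 1.

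**Figure D3:**
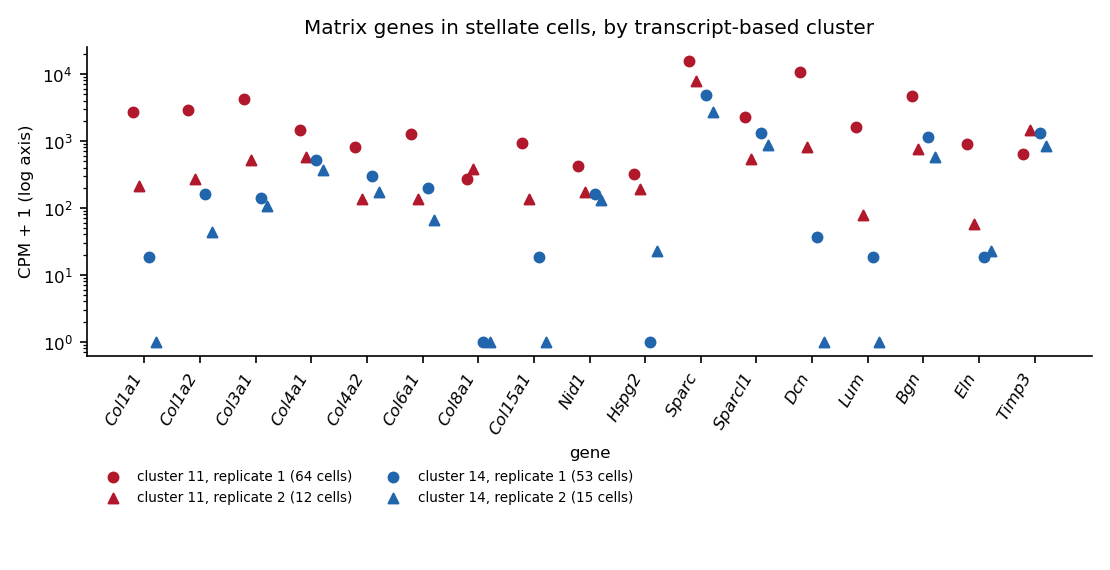
CPM plus 1 (log axis) of matrix genes in the transcript clusters 11 and 14 of the stellate class, with a symbol for each library. Col1a1, Col3a1, Dcn and Lum stand far higher in cluster 11, while Sparc, Col4a1 and Nid1 differ less between the clusters.

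The duct-led cluster (12 and 16 cells) had a smaller matrix set. There 10 of the 36 genes were higher than in endocrine cells, where 14.4% of all genes were called higher. Timp3 had 6 and 108 UMIs (160 and 373 CPM), Sparc had 17 and 103 (455 and 356 CPM), Bgn had 5 and 38 (134 and 131 CPM), and Hspg2 had 2 and 16 (53.5 and 55.3 CPM). The CPM of Sparc, Bgn and Hspg2 lay close together in the libraries although replicate 1 rested on few UMIs. Col18a1 (4 and 18 UMIs), Lama4 (2 and 17), Lama5 (2 and 8), Col4a2 (1 and 2), Lamb2 (0 and 9) and Eln (0 and 2) were the other genes called. Lamb2 and Eln rest on replicate 2 alone, and with UMIs thinned to the same total in both libraries 6 of the 10 were called (Col4a2, Eln, Lama5 and Lamb2 were not). No fibrillar collagen or collagen VI UMI was found in this cluster.

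Macrophages held 8 and 5 UMIs of the 36 genes. Col14a1 (1 and 4 UMIs) and Col15a1 (1 and 1) were called higher than in endocrine cells, 2 of the 36 where 9.83% of all genes were called higher. Both calls rest on these few UMIs.

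Endocrine cells held few matrix UMIs per cell, yet for some genes they held a large share of the UMIs. They held 37.2% and 63.5% of all Col4a1 UMIs, 74.5% and 98.1% of Col6a3, 72.3% and 94.8% of Lama2 and 68.6% and 79.5% of Lamc1. When each endocrine type was set against the mean of the other 3, beta cells had 2 genes higher (Col4a1 and Col6a3) and 3 lower (Lama5, Nid1 and Sparc), where 9.74% of all genes were called higher and 8.5% lower (18.2% in either direction). Alpha cells had 4 genes higher (Lama2, Nid1, Col1a2 and Sparc), where 4.54% of all genes were higher and 4.74% lower (9.28% in all). PP cells had Nid1 higher and Col4a1 lower, where 5.22% were higher and 4.15% lower (9.37% in all). In delta cells edgeR called 0 of the 36, where 5.96% of all genes were higher and 0.621% lower (6.58% in all), with 4 at an unadjusted p under 0.05, and DESeq2 called 0.

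Col4a1 was higher in beta cells under every alternative that gave a test. It had 183 and 148 UMIs in beta cells (33.6 and 33.7 CPM), 16 and 17 in alpha cells (8.37 and 7.44 CPM), 25 and 32 in delta cells (10.9 and 7.45 CPM) and 2 and 0 in PP cells. Beta cells were above every other endocrine type in each library, by 4.01 and 4.95 times over the other 3 together (95% counting intervals 2.86 to 5.72 and 3.56 to 6.99). The fit gave a log2 difference of 2.61 ± 0.32 SE (adjusted p = 2.00e-07), and DESeq2 called it too. All 4 beta cell clusters had similar levels, from 24.8 to 37.8 CPM in replicate 1 and from 27.5 to 38.3 CPM in replicate 2.

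A Col4a1 UMI was found in 172 of 2284 beta cells (7.53%) and in 125 of 435 (28.7%), at median depths of 2223.5 and 9947 UMIs a cell. Thinned to 1000 UMIs a cell, with the 95 shallower cells of replicate 1 left out, the shares were 3.75% and 3.68%. No macrophage had one (0 of 62 and 0 of 7, which allows up to 4.84% and 42.9%, at median depths of 1526 and 8862), and 2 of 283 and 0 of 41 PP cells did.

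The partner chain was all but missing in the same cells. Col4a2 had 3 and 1 UMIs in beta cells, so Col4a1 made up 98.4% and 99.3% of the UMIs of the pair (lower exact 95% bounds 95.4% and 96.3%). In endothelial cells Col4a1 made up 61.2% and 57.4% of the pair, and in stellate cells 63.6% and 75.8%. The beta cell bounds lay above the intervals of endothelial and stellate cells in both libraries. Alpha cells had 16 and 17 Col4a1 UMIs and 2 of Col4a2 in each library. The lower bounds of their Col4a1 share (65.3% and 66.9%) were not above the endothelial or stellate intervals. Delta cells had 25 and 32 Col4a1 against 0 and 3 Col4a2 UMIs, a Col4a1 share whose lower bounds (86.3% and 76.9%) were above the endothelial intervals too. In replicate 2 the delta bound lay within the stellate interval (63.3% to 85.8%). The delta class also carried the 5 beta markers at 50444 and 44208 CPM. Alpha cells had them at 2647 and 7302 CPM and beta cells at 131225 and 108539 CPM. High doublet scores were found in 149 of 965 and 39 of 318 delta cells. The part of beta cell RNA in the delta Col4a1 UMIs was not tested. So by gene UMIs, the genes that share a start region, printed above, were detected together in endothelial and stellate cells and mostly as Col4a1 alone in beta cells. Alpha and delta cells leaned the same way on fewer UMIs.

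How the Col4a1 reads were assigned differed as well. In beta cells 3.28% and 2.03% of the Col4a1 gene UMIs were assigned to an annotated transcript, against 9.68% in endothelial cells of each library and 11.3% and 10.6% in stellate cells. For the 36 genes together the assigned share was 72.0% and 64.5%. Col4a2 had 157 and 46 UMIs of its coding transcript Col4a2-201 in endothelial cells, as many as gene UMIs. The pair shares above thus set a gene with few assigned UMIs beside a gene with nearly all assigned. Among assigned UMIs, beta cells had 5 and 3 of the coding Col4a1-201 against 2 and 1 of Col4a2-201. Endothelial cells had 22 and 5 of Col4a1-201. An antisense noncoding gene, Gm15418 (chr8:11187755-11204503, plus strand), overlaps the 3' end of Col4a1 (chr8:11198423-11312826, minus strand). It had 65 and 17 UMIs in beta cells, 173 and 130 in alpha cells, 41 and 54 in delta cells and none in endothelial cells. Its order of types, with alpha cells highest, was not that of Col4a1. Without a statement that the counting was by strand, reads of the gene and of its antisense partner cannot be told apart.

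Col6a3 gave the same picture for collagen VI. It had 102 and 115 UMIs in beta cells (18.7 and 26.2 CPM), 0 and 4 in alpha cells, 3 and 33 in delta cells and none in PP cells. Beta cells were 32.0 and 5.09 times above the other endocrine types (95% counting intervals 10.6 to 158 and 3.49 to 7.59; log2 4.67 ± 0.77 SE, adjusted p = 4.25e-05), though DESeq2 did not call it (adjusted p = 0.176). Of the 33 delta UMIs of replicate 2, 26 lay in a single delta cluster that had none in replicate 1. Beta cells held no Col6a1 UMI and 0 and 1 Col6a2 UMIs, whereas in stellate cells the partners outnumbered Col6a3, by 100 and 10 UMIs of Col6a1 to 36 and 2. Here 98 and 110 beta cell UMIs were assigned to the coding transcript Col6a3-202 (41 exons, 9001 nt).

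Within beta cells Col6a3 varied by cluster while Col4a1 did not. In beta cluster 2 Col6a3 stood at 35.3 and 58.2 CPM, in cluster 0 at 15.2 and 22.5 CPM, in cluster 4 at 18.2 and 20.9 CPM, and in cluster 5 at 0 and 3.06 CPM. Cluster 2 was highest and cluster 5 lowest in both libraries. A Col6a3 UMI was found in 4.16% and 18.9% of beta cells and, thinned to 1000 UMIs, in 2.15% and 2.53%.

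**Figure D4:**
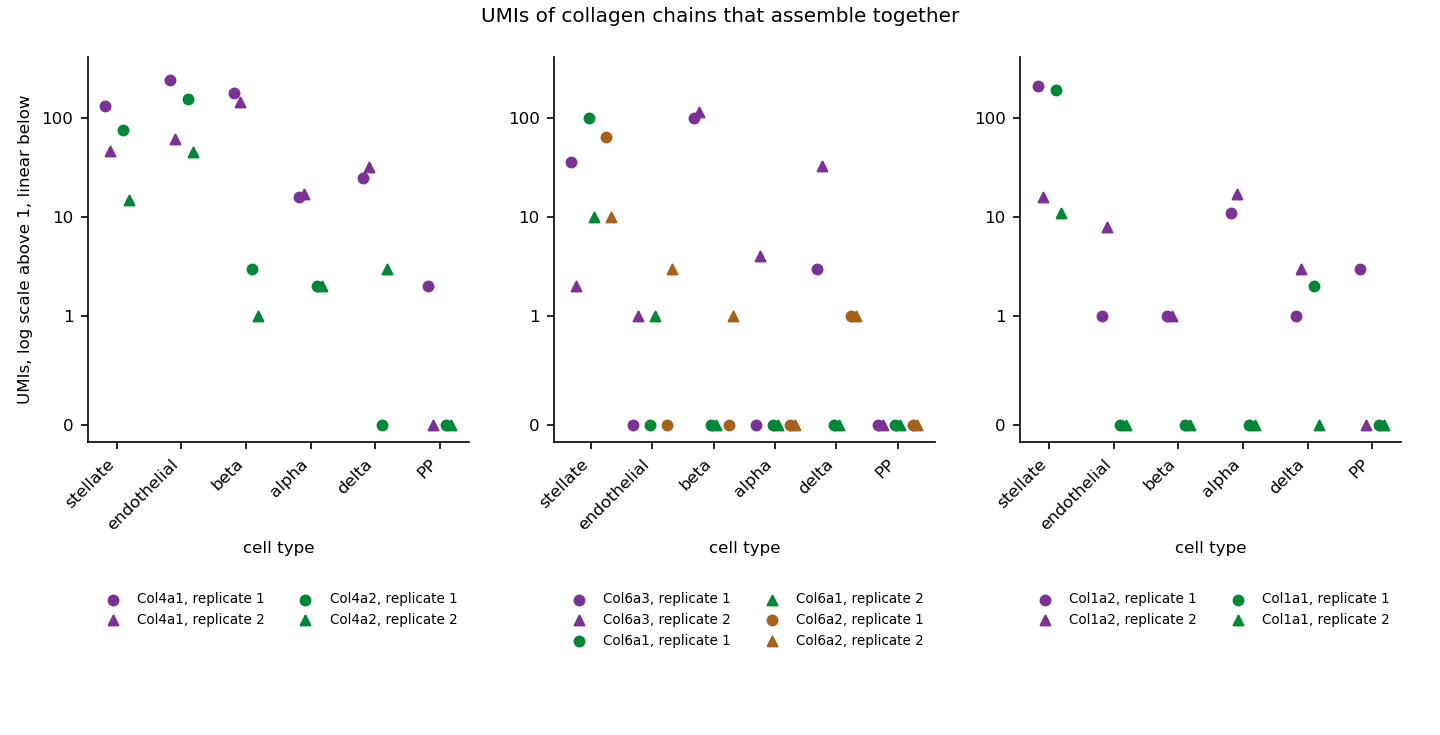
UMIs of collagen chains that assemble together (y axis, log scale above 1 and linear below) by cell type, with a colour for each chain and a symbol for each library. Col4a1 and Col4a2 lie close together in endothelial and stellate cells but apart in beta cells (183 and 148 against 3 and 1), and in beta cells Col6a3 has 102 and 115 UMIs where Col6a1 has none.

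In alpha cells the chain without its partner was Col1a2. It had 11 and 17 UMIs there (5.75 and 7.44 CPM) against 1 and 1 in beta cells, and no Col1a1 UMI was seen in alpha cells, while stellate cells had 214 and 16 Col1a2 against 194 and 11 Col1a1. Alpha cells stood 9.96 and 17.3 times above the other endocrine types (log2 3.57 ± 0.80 SE, adjusted p = 0.00284), though DESeq2 did not call it (adjusted p = 0.0974). Nid1 had 12 and 5 UMIs in alpha cells and 6 and 3 in PP cells, whereas beta cells and delta cells each had 1 per library.

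Lama2 was the laminin chain that most set alpha cells apart. It had 58 and 38 UMIs in alpha cells (30.3 and 16.6 CPM) and 30 and 31 in beta cells (5.51 and 7.07 CPM), and the groups did not overlap. Alpha cells were 5.97 and 2.92 times above the other endocrine types (log2 2.79 ± 0.45 SE, adjusted p = 6.42e-05), with both alpha clusters at similar levels (31.4 and 17.1 CPM, and 25.0 and 15.4 CPM). The beta chain Lamb1 was at 2 and 1 UMIs in alpha cells, and the gamma chain Lamc1 was at 28 and 20 there and at 53 and 35 in beta cells.

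The transcripts of Lama2 differed between alpha and beta cells. The full coding transcript Lama2-201 (65 exons, 9614 nt, chr10:26981285-27616843, minus strand) had 10 and 13 UMIs in alpha cells, 13 and 3 in stellate cells and 0 in beta cells of each library. The retained-intron transcript Lama2-203 (2 exons, 6203 nt, chr10:26980036-26988514), which covers only the 3' end of the gene, had 29 and 28 UMIs in beta cells, 9 and 6 in alpha cells and none in stellate cells. In a test of transcript usage between alpha and beta cells (edgeR's diffSpliceDGE), chosen after these UMIs were seen, Lama2 was the 1 gene of the 36 tested and was called, where 2.23% of 5552 genes were called. Since its pattern prompted the comparison, the call adds nothing to the UMIs above. All assigned Lama2 UMIs of beta cells were thus of the short transcript.

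**Figure D5:**
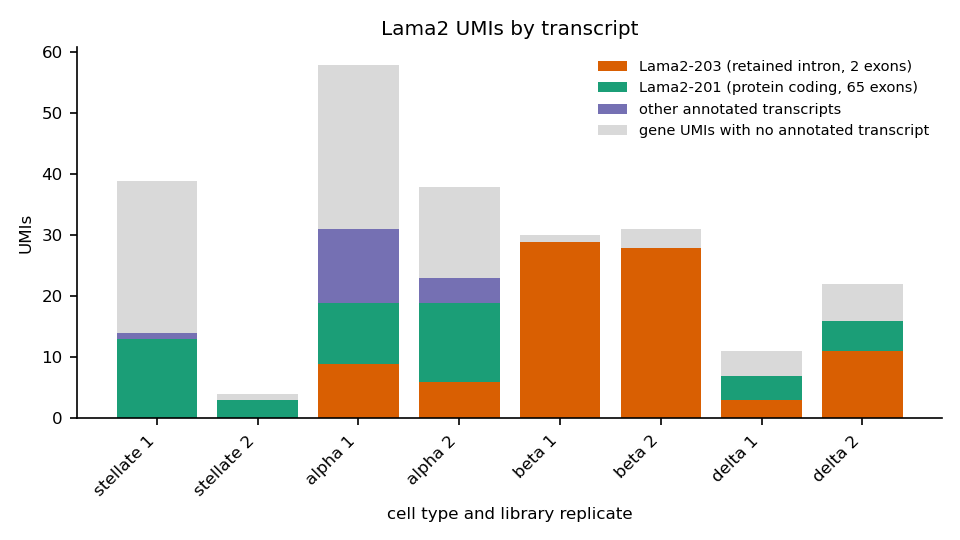
Lama2 UMIs by transcript (stacked bars) in each cell type and library, with gene UMIs that have no annotated transcript in grey. The coding transcript fills part of the alpha and stellate bars (10 and 13, and 13 and 3 UMIs) and is missing from the beta bars, where the retained-intron transcript has 29 and 28 UMIs.

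Between endothelial and stellate cells, transcript usage could be tested for 5 of the 36 genes (Timp3, Sparc, Bgn, Dcn and Col13a1). None was called by edgeR's diffSpliceDGE, where 1.28% of 392 genes were called. Timp3 was the 1 gene with an unadjusted p under 0.05 (edgeR adjusted p = 0.406). The coding transcript Timp3-201 made up 96.3% and 90.6% of assigned Timp3 UMIs in stellate cells and 67.6% and 81.6% in endothelial cells, where the noncoding Timp3-204 (2 exons, 3368 nt) had 62 and 19 UMIs. Some long genes were nearly unassigned, and Hspg2 had 0.654% and 0% of its endothelial UMIs assigned to a transcript.

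Genes that act on the matrix were described from 4 further lists, compared between endothelial and stellate cells, where 4.56% of all genes were higher and 6.16% lower. Of 34 other matrix proteins, 23 were tested, 2 were higher and 11 lower (median log2 −3.14, or −1.44 with genes at 0 set to their bounds). Mgp, an inhibitor of calcification, stood at 17.6 and 846 CPM in endothelial cells and at 9625 and 6440 CPM in stellate cells. Lama3, a laminin alpha chain, stood at 294 and 94.0 CPM in endothelial cells and was at 0 in stellate cells. Of 20 genes of collagen synthesis and crosslinking, 16 were tested, with Plod1, a lysyl hydroxylase, higher (217 and 188 against 30.7 and 30.2 CPM) and Pcolce, an enhancer of procollagen cleavage, and Loxl1 lower (11.7 and 110 against 707 and 222 CPM for Pcolce).

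Of 20 matrix proteases and inhibitors, 14 were tested and 6 were lower (Timp2, Serpine2, Timp1, Ctsk, Mmp14 and Htra1), with no other gene called. Of 24 matrix receptors, 20 were tested, 1 was higher, a share near that of all genes, and 4 were lower. The laminin-binding integrin chain Itga6 stood at 229 and 78.3 CPM in endothelial cells against 7.68 and 20.2 CPM in stellate cells. The collagen receptor Ddr2 stood at 0 and 31.3 CPM against 292 and 40.3 CPM. The median log2 differences of these last 3 lists were −0.66, −1.25 and −1.07, against −0.14 over all genes.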

How the data were processed

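The deposited tables hold the authors' raw UMI counts per gene and per transcript in each cell, for the 2 libraries of the modified 5' group. The sources used here do not name the counting tool or its strand setting. The build was mm10 and the cell table came from Seurat, per the submitters' processing notes. Cell types were taken from the authors' deposited annotation (4814 and 1093 cells), and a cluster led by duct markers was set apart.

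Counts were summed per library and type (8 types, 16 sums, at least 5 cells each). edgeR 4.0.16 in R 4.3.3 (TMM, filterByExpr, quasi-likelihood fit with legacy = FALSE, library as a block) tested 10459 genes, with Benjamini-Hochberg adjustment over all of them and a threshold of 0.05. legacy = FALSE was chosen after the default fit gave an infinite prior, and the default fit is an added alternative. Transcript usage was tested with diffSpliceDGE (at least 10 UMIs and 5% of the gene). DESeq2 1.42.0 was an alternative. Sums with the same replicate number come from the same library, so the library is a block in the fit. The tests were checked on simulated data. Counting intervals (95%, exact binomial), the floor of 3 UMIs and the limit that a count of 0 allows (3 of the total) cover counting error only. Summed UMIs ranged from 37392 in the duct-led cluster of replicate 1 to 5442462 in beta cells of replicate 1, and 1 UMI was worth 7.68 and 10.1 CPM in stellate cells and 5.87 and 15.7 CPM in endothelial cells. Doublets were not removed. Leaving out the 6% of cells with the highest Scrublet score was an alternative.

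The 36 genes, their roles and the other lists were chosen with earlier results of these data known. Values per library are given for up to 4 genes of each role with most UMIs, for genes called between endothelial and stellate cells (up to 8 each way) and for genes called in other types (up to 4 each), and other genes are named where a count of them is given. Gene positions are from GENCODE M21 (GRCm38). Analyses used Python 3.11.15 with numpy 2.4.6, pandas 2.3.3, scipy 1.17.1 and scanpy 1.11.5, and figures used matplotlib 3.10.9. The 5 other samples of the series were not analysed here. The level of 1 marker gene is not reported here.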

Additional observations from a re-analysis of the deposited data

Results flagged for a closer look

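Signal outside the cells used above was flagged for the 36 genes. The count tables hold 1581 and 1031 barcodes that are not in the authors' merged cell table, with median depths of 651 and 3178 UMIs. In these barcodes the 36 genes summed to 1564 and 4233 UMIs, or 794 CPM in replicate 1 and 1072 CPM in replicate 2, against 722 and 250 CPM in the cells kept. Endothelial markers summed to 453 and 976 CPM in them, against 376 and 131 CPM in the cells kept. Stellate and pericyte markers summed to 254 and 68.1 CPM, against 181 and 128 CPM in the cells kept. In replicate 2 the barcodes left out thus held 3854 endothelial marker UMIs against 1586 kept, but 269 stellate and pericyte marker UMIs against 1545 kept. Whether this changes the order of stellate and endothelial cells was not tested. Fibrillar collagens stood at 64.0 and 35.4 CPM, against 74.8 and 9.34 CPM in the cells kept. In replicate 2 more matrix UMIs were thus held by barcodes left out (4233) than by cells kept (3027), and shares by cell type are shares of the cells kept. The sources used here do not say why these barcodes were left out.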

How the results depend on the processing

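Limits: there are 2 libraries, the endothelial class of replicate 2 has 10 cells, and 10 of the 12 cluster 11 cells of replicate 2 carry Schwann markers. Against 18 genes lower in endothelial than in stellate cells, DESeq2 called 2 and stellate cluster 14 alone gave 3. Against 5 higher, DESeq2 and the fit with no replicate block gave 3 each, the undivided endothelial class gave 2, and cluster 14 alone gave 8. Genes higher in stellate than in endocrine cells were 35, or 19 with cluster 14 alone. The duct-led count was 10, or 6 thinned to equal totals. The macrophage count was 2, 5 by DESeq2, and 1 with no filter on low counts, with cluster 14 alone, when thinned, or without high doublet scores. The mean share of UMIs in endocrine cells was 16.8%, or 0.685% as a share of mean CPM (types weighted equally), and in endothelial cells 29.0%, or 38.9%. Leaving out either library gave shares of 9.81% to 23.9% for endocrine, 27.7% to 30.2% for endothelial and 37.1% to 59.3% for stellate cells.

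Signs reversed for these log2 differences. Leaving out a library, the values ran from −0.056 to 2.14 for Col3a1 (negative without replicate 1), from −0.092 to 4.65 for Col6a2 and from −1.09 to 6.14 for Dcn (endothelial against endocrine, both negative without replicate 2). They ran from −2.85 to 0.60 for Eln (endothelial against stellate, positive without replicate 1), from −1.07 to 5.29 for Fn1 and from −1.56 to 3.87 for Lama5 (stellate against endocrine, negative without replicates 1 and 2 respectively), and from −0.42 to 4.20 for Lamb2 (duct-led, negative without replicate 2). Without endothelial cells carrying pericyte markers: Col6a2 −1.22 and Dcn −3.45 against endocrine cells, and Col1a2 was no longer called (adjusted p = 0.686). With stellate cluster 14 only: Dcn 0.99, Eln 1.95 and Sparc 0.22 against stellate cells, and Nid2 −1.03 (stellate against endocrine). Thinned: Lamb2 (duct-led) −1.79. The cause of these changes was not tested.

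Of 107 calls, 99 were kept with no replicate block and 8 were lost: Col3a1 (endothelial against endocrine, adjusted p = 0.0935), Sparc in alpha cells (0.146), and, between endothelial and stellate cells, Col4a2 (0.305), Col6a3 (0.0530), Eln (0.140), Fbn1 (0.0809), Sparc (0.271) and Timp3 (0.0793). DESeq2 kept 73 and lost 34, and edgeR's default fit lost 1 (Col3a1 against endocrine cells). Library totals in place of TMM lost 1 (Sparc, endothelial against stellate) and reversed none. That scaling moved the median of all genes from −0.15 to 0.05 for stellate, −0.26 to 0.10 for endothelial, −0.19 to 0.22 for duct-led, 0.00 to 0.29 for beta and 0.01 to −0.27 for alpha cells. With it the genes called higher and lower went from 1433 and 900 to 1632 and 641 for stellate cells, from 1735 and 1871 to 2175 and 1231 for endothelial cells, from 1501 and 1572 to 2210 and 1015 for the duct-led cluster, from 1019 and 889 to 2437 and 639 for beta cells, from 475 and 496 to 301 and 1360 for alpha cells, and from 546 and 434 to 302 and 1098 for PP cells. The test of transcript usage between endothelial and stellate cells gave 0 of the 36 genes under each of its alternatives. The settings that use cluster 14 only or leave out cells were chosen after seeing the data.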
